A study of Rattus norvegicus with 9 samples.

Results

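Hyaluronan is the long unbranched sugar polymer that holds water in the dermis and between the cells of the epidermis. The genes described here are 9, of 23480 symbols in the table. They were chosen by name, as the synthases HAS1, HAS2 and HAS3, the hyaluronidases HYAL1, HYAL2 and HYAL3, and the hyaluronan-binding proteins CD44, VCAN and TNFAIP6. The choice was made with earlier results of these data known. Each of the 9 had a row of its own and enough reads to be tested. The libraries hold polyadenylated RNA of skin from 4 old male Wistar rats, 24 months of age, and 5 young male Wistar rats, 6 months of age. Wistar is an outbred albino laboratory strain, no animal carries a treatment or an allele in the labels, and the design text describes the samples as different animals. From which body site the skin came is not stated.

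Hyaluronan is made at the cell surface by the synthases, which join UDP-glucuronic acid and UDP-N-acetylglucosamine and push the growing chain out of the cell. In skin, fibroblasts and keratinocytes both make it, and it turns over quickly. It is cut by hyaluronidases at the surface and in lysosomes, bound by receptors such as CD44, and built into pericellular coats with versican and with the heavy chains that TNFAIP6 transfers onto it.

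Total counts were 34.1, 20.1, 29.5 and 25.0 M (M, a count of 1000000) in old replicates 1 to 4, against 19.2, 20.2, 17.3, 18.0 and 20.01 M in young replicates 1 to 5. Old replicates 1 and 3 hold even numbers at all 23480 symbols, while 37.8 to 39.3% of values are odd in the other 7 libraries. The sources used here do not say why, and if each read of these libraries was counted more than once, their numbers of reads are smaller than the counts given. Their totals are 17.1 and 14.7 M when halved, and results are given below also without them. Levels are counts per 1000000 (CPM) after TMM scaling, and each fold change is the log2 ratio of old to young skin, with its SE. Skin markers were present: all 8 keratinocyte and all 8 fibroblast markers passed the filter on low counts. Skeletal muscle markers held 1.63 to 8.31% of counts in old skin and 4.03 to 8.44% in young skin. In bulk tissue, fewer cells of a type and less RNA per cell cannot be told apart.

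Of the 9 genes, 3 were higher in old skin and 0 were lower (edgeR quasi-likelihood test, adjusted p under 0.05 over 14933 genes). They were HAS1, HAS2 and TNFAIP6. Over all genes tested, 9.62% were called higher, 4.41% lower and 14.0% in either direction. As the 9 genes were chosen with earlier results of these data known, their counts are descriptions. At an unadjusted p under 0.05, edgeR also gave 3 higher and 0 lower. DESeq2 and limma-voom each gave 3 higher and 1 lower, with 0 lower after adjustment in both. The shares of all genes at an unadjusted p were not worked out, so the unadjusted counts cannot be set against the shares above. The median log2 fold change of the 9 genes was -0.17, against -0.05 over all genes tested. The levels of the groups did not overlap for 3 of the 9, HAS2, TNFAIP6 and HYAL3, where 16.5% of all tested genes did not overlap.

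**Figure D1:**
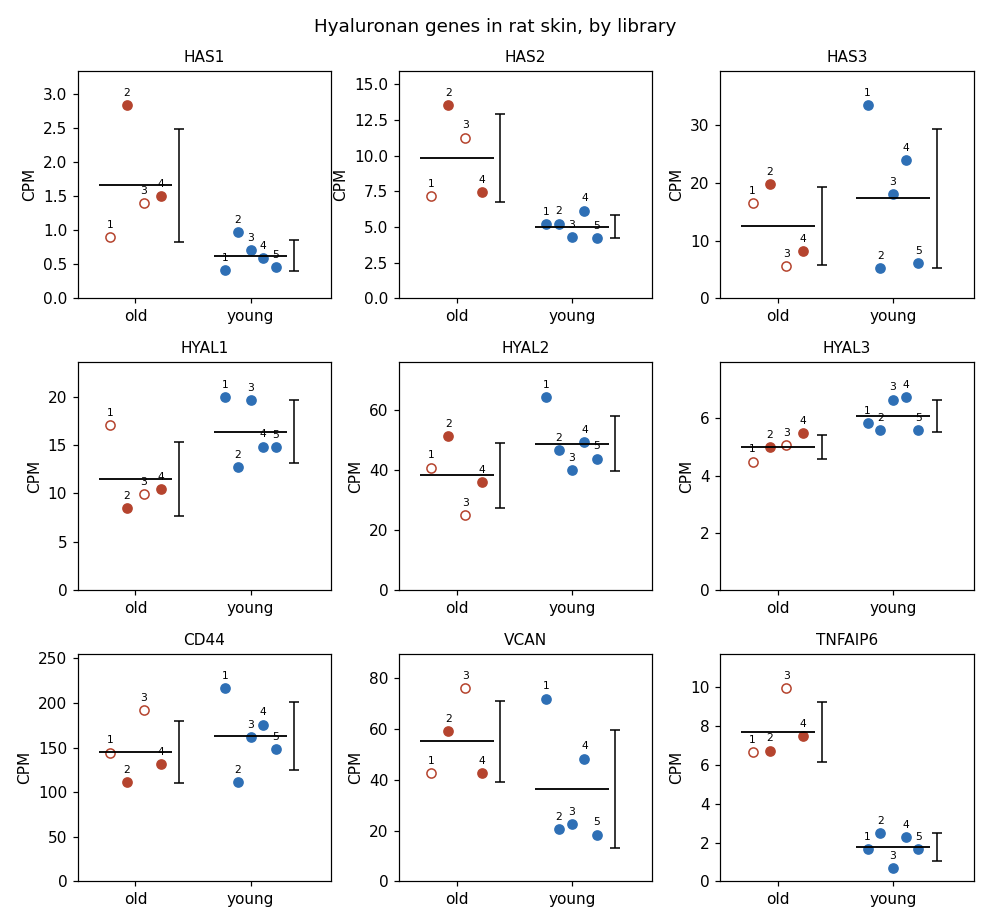
Level of each of the 9 hyaluronan genes in CPM (vertical axes, linear from 0) in old skin (left, 4 libraries) and young skin (right, 5 libraries). Each point is 1 library, open circles are old replicates 1 and 3, and the line and bar are the mean and SD. The old points of HAS2 and TNFAIP6 all lie above the young ones, the old points of HYAL3 all lie below them, and the groups overlap in the other 6 panels.

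The promoters of HAS1 and TNFAIP6 are shown because both genes were higher in old skin. Promoter rows were found for 7 of the 9 genes in a RefSeq table of the rat assembly GRCr8, with none for HAS2 or HAS3. The 250 bases before the annotated start are given 5′ to 3′ on the gene's strand, with capitals on the motif matches named below. HAS1 lies on the minus strand at chr1:67378445-67378694, and TNFAIP6 on the plus strand at chr3:56911148-56911397.
HAS1: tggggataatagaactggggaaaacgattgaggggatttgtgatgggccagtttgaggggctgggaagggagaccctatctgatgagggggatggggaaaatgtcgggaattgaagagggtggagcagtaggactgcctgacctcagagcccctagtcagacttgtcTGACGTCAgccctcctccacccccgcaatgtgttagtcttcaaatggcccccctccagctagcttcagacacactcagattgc
TNFAIP6: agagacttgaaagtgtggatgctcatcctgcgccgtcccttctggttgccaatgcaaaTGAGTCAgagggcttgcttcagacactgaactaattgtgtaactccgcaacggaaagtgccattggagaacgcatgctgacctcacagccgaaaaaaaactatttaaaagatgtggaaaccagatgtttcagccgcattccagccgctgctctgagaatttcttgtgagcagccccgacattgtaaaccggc
The capitals in HAS1 mark TGACGTCA, the cyclic AMP response element, at positions -83 to -76 from the start. The capitals in TNFAIP6 mark a match to TGANTCA, the AP-1 element, at positions -192 to -186 from the start. Both strands were searched, and of 33469 promoter windows of this length 1.59% held TGACGTCA and 6.34% held TGANTCA. The motifs were chosen after the promoters had been read, and a match describes the letters only.

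Transcripts of HAS2, the synthase that makes most of the hyaluronan of dermal fibroblasts, were higher in old skin. HAS2 had 7.18, 13.5, 11.3 and 7.43 CPM in old replicates 1 to 4, against 5.22, 5.25, 4.30, 6.16 and 4.22 CPM in young replicates 1 to 5. Every old library lay above every young one. The means were 9.85 ± 3.08 CPM in old skin and 5.03 ± 0.797 CPM in young skin (SD, n = 4 and n = 5), a log2 fold change of 0.97 ± 0.22 (edgeR quasi-likelihood adjusted p = 0.0200), or 1.95-fold. The call was lost without young replicate 3 (0.92, edgeR adjusted p = 0.0531). In GRCr8 a long noncoding RNA overlaps HAS2, and the library kit does not mark strand, so reads of the overlap cannot be assigned to either.

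HAS1, a synthase of lower activity, had few counts. The deposited counts were 34, 55, 48 and 38 in old replicates 1 to 4, with the all-even values in replicates 1 and 3, against 8, 17, 12, 11 and 8 in young replicates 1 to 5. As levels these were 0.898, 2.83, 1.39 and 1.50 CPM in old skin, against 0.414, 0.969, 0.707, 0.589 and 0.457 CPM in young skin. Old replicate 1 lay below young replicate 2, so the groups overlap, and old replicate 2 stood highest. The log2 fold change was 1.38 ± 0.38 (95% interval 0.52 to 2.24, edgeR quasi-likelihood adjusted p = 0.0406). HAS1 passed in 11 of 21 alternatives. Among the fits without 1 library it passed without old replicate 1 or young replicate 2 and not without any of the other 7, where its log2 fold change was 1.00 to 1.48.

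HAS3, the synthase tied most to keratinocytes, varied more within each age than between them. It had 16.5, 19.8, 5.58 and 8.26 CPM in old skin, against 33.4, 5.19, 18.1, 23.9 and 6.05 CPM in young skin. Old replicates 3 and 4 and young replicates 2 and 5 were the 4 lowest libraries, and the others were higher at both ages. The log2 fold change was -0.47 ± 0.59 (95% interval -1.78 to 0.84, edgeR quasi-likelihood adjusted p = 0.626). The number of HAS2 reads per HAS3 read was highest in the same 4 libraries: it was 0.435, 0.683, 2.02 and 0.900 in old skin, against 0.156, 1.01, 0.238, 0.257 and 0.698 in young skin.

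The high HAS3 libraries were also those with much hair shaft RNA. A list of 18 hair shaft and inner root sheath genes, written after the HAS3 values had been seen, held 1.35, 0.400, 0.00506 and 0.0278% of counts in old skin, against 3.11, 0.00445, 0.359, 1.07 and 0.00196% in young skin. The 4 libraries with the smallest hair shares, old replicates 3 and 4 and young replicates 2 and 5, were the 4 with the least HAS3. None of the 18 hair genes was called by edgeR's quasi-likelihood test, by DESeq2 or by limma-voom, and 0 had an unadjusted edgeR p under 0.05, with a median log2 fold change of -1.03. With the hair score as a covariate, chosen after seeing the data, the HAS3 difference was -0.29 ± 0.19 (edgeR adjusted p = 0.312), with an SE below the 0.59 of the fit without it. HAS1, HAS2 and TNFAIP6 stayed called, at 1.38, 0.97 and 2.11. As the list was written with the HAS3 values known, the smaller SE of HAS3 is a description. The part of hair in the HAS3 levels was not tested.

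**Figure D2:**
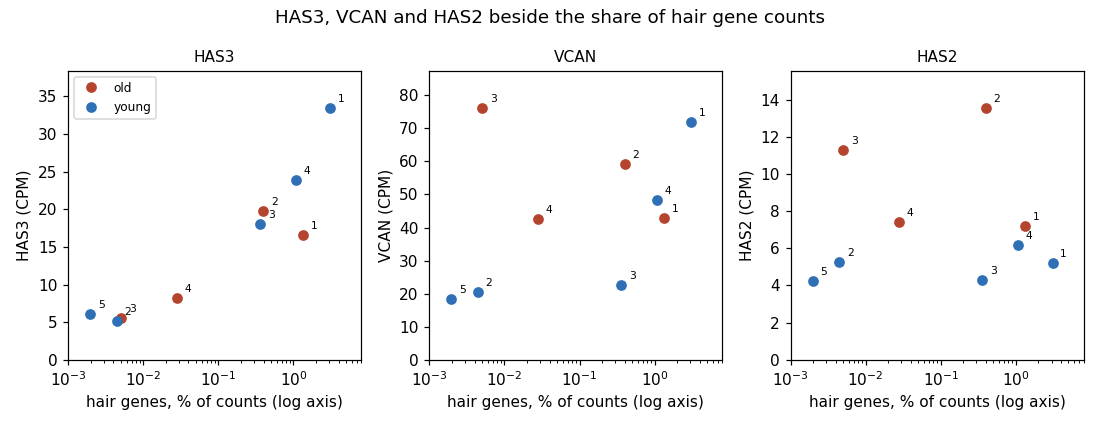
Levels of HAS3, VCAN and HAS2 in CPM (vertical axes, linear from 0) against the percent of counts in the 18 hair shaft and inner root sheath genes (horizontal log axis). Each point is 1 library with its replicate number, old red and young blue; HAS3 is low in the 4 libraries with hair shares of 0.00196 to 0.0278% and higher in the 5 with 0.359 to 3.11%, at both ages.

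None of the 3 hyaluronidases passed edgeR's quasi-likelihood test, at an unadjusted p either, and all 3 had lower mean levels in old skin. HYAL1, the lysosomal enzyme, had 17.1, 8.48, 9.94 and 10.4 CPM in old skin, against 19.95, 12.7, 19.6, 14.8 and 14.8 CPM in young skin. Old replicate 1 lay among the young libraries and the other 3 old ones lay below them. The log2 fold change was -0.51 ± 0.23 (95% interval -1.03 to 0.00, edgeR quasi-likelihood adjusted p = 0.173), and without old replicate 1 it was -0.73 (adjusted p = 0.0419). That was the only 1 of 21 alternatives in which HYAL1 was called.

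HYAL2, an enzyme anchored at the cell surface, had 40.7, 51.1, 25.0 and 36.0 CPM in old skin, against 64.3, 46.6, 40.0, 49.1 and 43.7 CPM in young skin. The groups overlap, and the log2 fold change was -0.35 ± 0.21 (95% interval -0.81 to 0.11, edgeR quasi-likelihood adjusted p = 0.286). HYAL3, a family member of the same chromosome, had 4.49, 4.99, 5.05 and 5.49 CPM in old skin, against 5.84, 5.59, 6.66, 6.75 and 5.59 CPM in young skin. The HYAL3 groups do not overlap, yet the log2 fold change of -0.28 ± 0.14 did not pass (95% interval -0.60 to 0.03, edgeR adjusted p = 0.218). HYAL1 and HYAL3 overlap each other and Naa80 in the GRCr8 annotation. The sources used here do not say how shared reads were split between them, so both levels are uncertain.

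TNFAIP6, also called TSG-6, had the largest log2 fold change of the 9 genes. This secreted protein binds hyaluronan and is known to be induced by inflammatory signals. TNFAIP6 had 6.65, 6.73, 9.93 and 7.47 CPM in old skin, against 1.65, 2.51, 0.707, 2.30 and 1.65 CPM in young skin. The lowest old library lay above the highest young one. The means were 7.70 ± 1.54 CPM in old skin and 1.77 ± 0.705 CPM in young skin (SD, n = 4 and n = 5). The log2 fold change was 2.12 ± 0.32 (edgeR quasi-likelihood adjusted p = 0.00312), or 4.35-fold, with a 95% interval of 1.41 to 2.83. It passed in 21 of 21 alternatives, at log2 fold changes of 1.92 to 2.30.

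CD44, the main cell surface receptor for hyaluronan, did not pass. CD44 had 144, 111, 192 and 131 CPM in old skin, against 216, 112, 162, 176 and 148 CPM in young skin. The groups overlap throughout, and the log2 fold change was -0.17 ± 0.21 (95% interval -0.64 to 0.31, edgeR quasi-likelihood adjusted p = 0.629). With the skeletal muscle score as a covariate it was -0.43 ± 0.14 (edgeR adjusted p = 0.0675).

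VCAN encodes versican, the large proteoglycan that binds hyaluronan through its N-terminal domain and is also a gene of the dermal papilla of hair. VCAN had 42.8, 59.1, 76.0 and 42.6 CPM in old skin, against 72.0, 20.5, 22.7, 48.4 and 18.4 CPM in young skin. The old libraries spanned 42.6 to 76.0 CPM, and the young ones split, with young replicates 1 and 4 among the old libraries and the other 3 below them. The log2 fold change was 0.60 ± 0.41 (95% interval -0.33 to 1.52, edgeR quasi-likelihood adjusted p = 0.368), and with the hair score as a covariate it was 0.82 ± 0.37 (adjusted p = 0.157). Young replicates 1 and 4 had the largest hair shares of the young libraries. The old libraries held no such order. Old replicate 3, with the smallest old hair share (0.00506%), had the most VCAN. Old replicate 4, with the next smallest share (0.0278%), had the least, at 42.6 CPM. Old replicate 1, with the largest share (1.35%), had 42.8 CPM. Whether hair has a part in the VCAN levels was not tested.

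**Figure D3:**
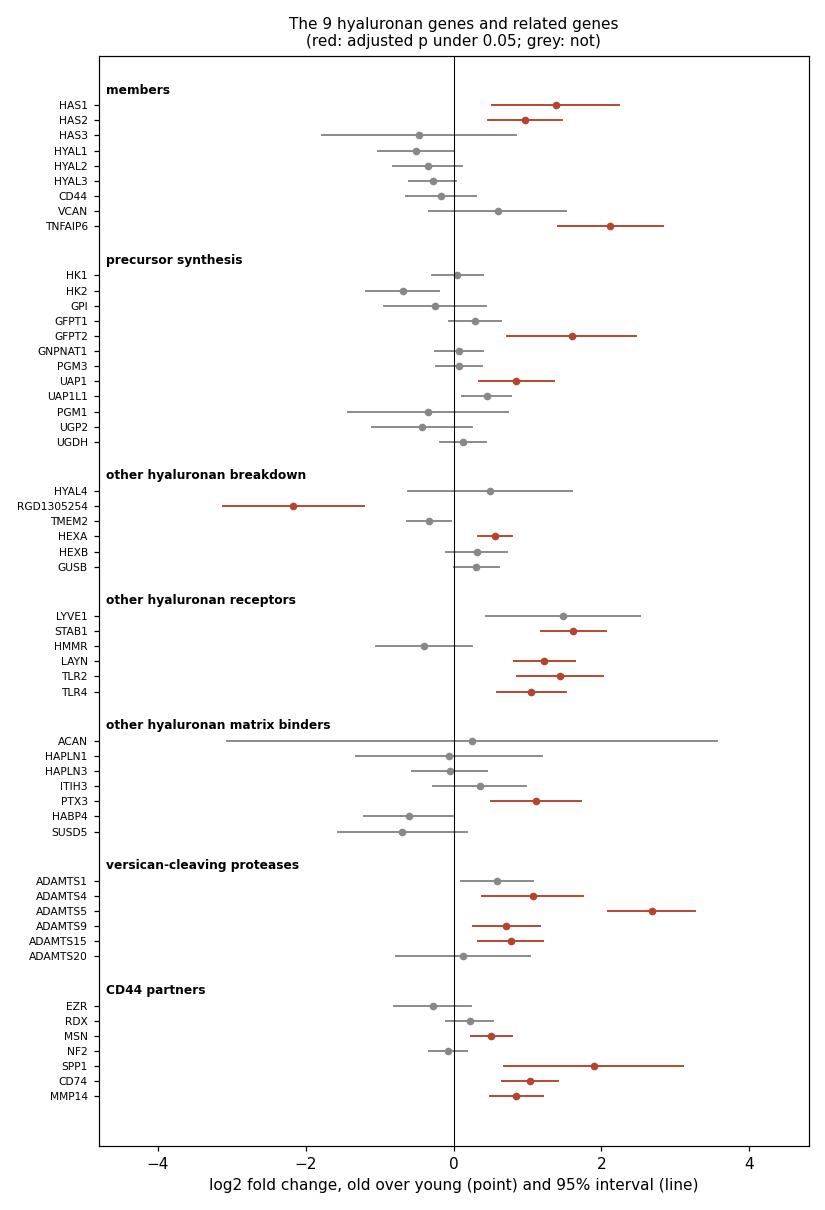
Log2 fold change, old over young (horizontal axis), of the 9 hyaluronan genes and the 44 tested related genes, with 95% intervals as lines and red for genes called by edgeR's quasi-likelihood test at an adjusted p under 0.05. HAS1, HAS2 and TNFAIP6 lie to the right of 0 with intervals that leave it out, and the intervals of HAS3, HYAL1, HYAL2, HYAL3, CD44 and VCAN reach it.

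Genes around the 9 in the hyaluronan pathway were taken from 6 lists of 59 names, of which 57 matched the table and 44 were tested. Of these 44, 16 were higher and 1 was lower in old skin, where 9.62% of all tested genes were called higher and 4.41% lower. The lists were written with earlier results of these data known, and their counts are descriptions.

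Among 12 genes that make the sugar precursors, 2 were higher, a share near the 9.62% of all tested genes, with a list median of 0.08. GFPT2, which catalyses the first step of the hexosamine pathway, had 38.3, 90.5, 65.4 and 44.9 CPM in old skin, against 13.7, 34.2, 8.13, 21.6 and 21.1 CPM in young skin. The groups do not overlap (log2 fold change 1.60 ± 0.39, edgeR adjusted p = 0.0248), though the call was lost without old replicate 2 (1.32, adjusted p = 0.0531). GFPT1, an enzyme of the same step, was named after its values were seen. It averaged 82.4 CPM in old skin and 67.2 CPM in young skin and was not called (0.29 ± 0.16, edgeR adjusted p = 0.247). UAP1, which forms UDP-N-acetylglucosamine, was higher by 0.85 ± 0.23 (edgeR adjusted p = 0.0344). The UAP1 call was lost without old replicate 4 and without any young library other than young replicate 2. UGDH, the source of UDP-glucuronic acid, was named after its values were seen and differed by 0.13 ± 0.14 (edgeR adjusted p = 0.559).

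The list of other breakdown genes, which includes HYAL4, held the single related gene that was lower. CEMIP, listed in the table under its older symbol RGD1305254, is needed for hyaluronan breakdown by human skin fibroblasts. CEMIP had 2.90, 4.01, 1.05 and 1.30 CPM in old skin, against 6.98, 9.46, 15.8, 8.57 and 10.96 CPM in young skin. Every old library lay below every young one (log2 fold change -2.17 ± 0.43, edgeR adjusted p = 0.00938). The difference was -1.94 (adjusted p = 0.0503) without the 2 all-even old libraries. HEXA, a subunit of the lysosomal beta-hexosaminidase that trims hyaluronan fragments, averaged 114 ± 7.93 CPM in old skin and 77.5 ± 7.67 CPM in young skin (log2 fold change 0.56 ± 0.10, edgeR adjusted p = 0.00723). This list had 6 tested genes and a median of 0.31, and the remaining 4, HYAL4 among them, were not called.

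Of 6 tested receptors other than CD44, 4 were higher, with a median of 1.33. STAB1, a scavenger receptor of macrophages and sinusoidal endothelium, had 56.8, 78.2, 113 and 87.3 CPM in old skin, against 21.7, 28.8, 23.4, 30.6 and 31.9 CPM in young skin (1.62 ± 0.20, edgeR adjusted p = 0.00163). LAYN, a membrane receptor for hyaluronan, was higher by 1.23 ± 0.18 (edgeR adjusted p = 0.00304). TLR2 and TLR4, innate immune receptors reported to respond to hyaluronan fragments, were higher by 1.44 ± 0.26 and 1.05 ± 0.21 (edgeR adjusted p = 0.00689 and 0.0101). LYVE1, a receptor of lymphatic endothelium, was named after its values were seen and did not pass (1.48 ± 0.46, edgeR adjusted p = 0.0621). LYVE1 was called higher with DESeq2, with scaling by library totals alone, without old replicate 1 or young replicate 2, and with the hair covariate.

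Of 7 tested matrix binders, 1 was higher, again near the share of all tested genes, with a list median of -0.05. It was PTX3, which binds TNFAIP6 in hyaluronan matrices (1.12 ± 0.27, edgeR adjusted p = 0.0237), and its call was lost on leaving out young replicate 2, young replicate 3 or the 2 all-even old libraries together. Of 6 proteases that cut versican, 4 were higher, with a median of 0.74. ADAMTS5 had 65.8, 42.8, 45.5 and 85.6 CPM in old skin, against 11.5, 10.2, 5.54, 9.11 and 10.3 CPM in young skin (2.68 ± 0.26, edgeR adjusted p = 0.00117). ADAMTS15, ADAMTS4 and ADAMTS9 were higher by 0.77, 1.07 and 0.72 (edgeR adjusted p = 0.0291, 0.0443 and 0.0457). All 3 calls depended on single libraries. ADAMTS15 was lost without old replicate 1 or 2 or young replicate 2 or 3, ADAMTS4 without any library but old replicate 3, and ADAMTS9 without any but old replicates 2 and 3.

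Of 7 tested partners of CD44, 4 were higher, with a median of 0.51. CD74, which forms a receptor complex with CD44, averaged 610 ± 85.1 CPM in old skin and 299 ± 56.7 CPM in young skin (1.03 ± 0.17, edgeR adjusted p = 0.00439). MMP14, a membrane protease that sheds CD44, was higher by 0.85 ± 0.16 (edgeR adjusted p = 0.00746). MSN, which ties CD44 to actin, was higher by 0.51 ± 0.12 (edgeR adjusted p = 0.0211), a call lost without old replicate 4 or young replicate 2 or 3. SPP1, a secreted ligand of CD44, was higher by 1.89 ± 0.54 (edgeR adjusted p = 0.0453), a call that held in fits without 1 library only where that library was old replicate 2 or young replicate 5, and that was lost without the 2 all-even old libraries.

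Markers of several cell types moved with age beside the genes that rose. All 8 macrophage markers were higher, and they held 0.0387 to 0.0912% of counts in old skin and 0.00844 to 0.0171% in young skin. All 6 adipocyte markers were higher, at 0.193 to 0.627% of counts in old skin and 0.0333 to 0.0816% in young skin. Fibroblast markers were higher in 4 of 8, with 1.34 to 2.00% of counts in old skin and 0.993 to 1.52% in young skin. Keratinocyte markers were lower in 3 of 8, with 2.06 to 3.20% of counts in old skin and 2.52 to 7.25% in young skin. Of the other lists, 3 of 5 tested T cell markers and 4 of 6 mast cell markers were higher. Of 8 skeletal muscle markers, 1 was higher and 3 were lower. No endothelial or smooth muscle marker was called by edgeR, DESeq2 or limma-voom. At an unadjusted edgeR p under 0.05 there were 2 of 6 and 0 of 4, for which the share of all genes was not worked out. No marker was at 0 in all libraries. With the skeletal muscle score as a covariate, HAS1, HAS2, TNFAIP6, CEMIP, STAB1 and CD74 were still called by edgeR's quasi-likelihood test, at 1.63, 0.99, 2.05, -1.93, 1.58 and 1.07. SPP1 (1.64, edgeR adjusted p = 0.14) and ADAMTS9 (0.72, edgeR adjusted p = 0.064) lost their calls in that fit. The score averages the 8 muscle markers, of which 1 was higher and 3 were lower in old skin. The part of the macrophage, adipocyte, fibroblast, keratinocyte, T cell and mast cell markers in the values of these genes was not tested.

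The genes whose levels followed HAS1, HAS2 and TNFAIP6 most closely across the 9 libraries, after the mean of each age was taken off, were sought among 14080 genes. For HAS1 they were GAP43, NR2F1 and HNRNPH3 (Pearson r of log2 CPM 0.935, 0.931 and 0.915). For HAS2 they were ACTR6, CHST10 and HNRNPC (0.909, 0.908 and 0.906). For TNFAIP6 they were PPAP2B, SLIT3 and SASH3 (0.963, 0.961 and 0.931). With 9 libraries many genes reach such values. The 20th-ranked gene still had r = 0.851 for HAS1, 0.819 for HAS2 and 0.892 for TNFAIP6. These values describe the libraries, which differ in depth and tissue make-up, and carry no test.

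**Figure D4:**
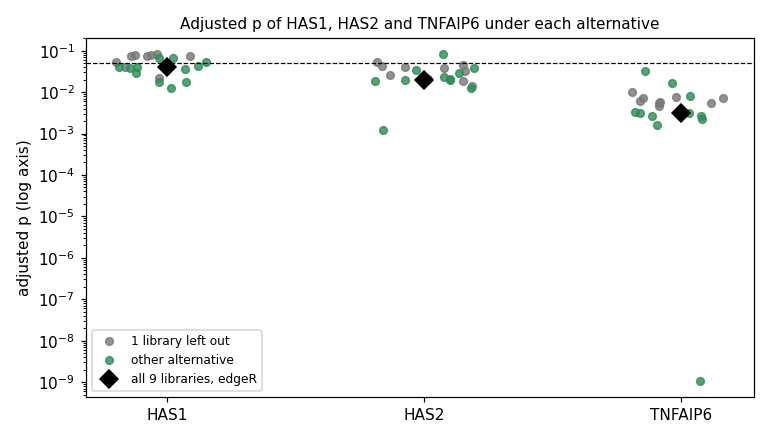
Adjusted p (vertical log axis) of HAS1, HAS2 and TNFAIP6 under the 21 alternatives, 1 point each, with fits that leave out 1 library in grey, the others in green, and edgeR's quasi-likelihood test on all 9 libraries as a black diamond. The dashed line is 0.05; TNFAIP6 lies below it in 21 alternatives (1.06e-09 with DESeq2 to 0.0324), HAS2 in 19 and HAS1 in 11.

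Without old replicates 1 and 3, an alternative chosen after seeing the data, the same 3 of the 9 genes were called. HAS1, HAS2 and TNFAIP6 were then higher by 1.81, 1.09 and 2.04 (edgeR adjusted p = 0.0283, 0.038 and 0.0165). With the values of both libraries halved they were higher by 1.40, 0.97 and 2.12 (edgeR adjusted p = 0.0373, 0.0199 and 0.0031). Scaling by library size undoes the halving of a whole library, so these fold changes could hardly differ from those of the deposited values.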

How the data were processed

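The authors deposited 1 table of read counts, whole numbers with no normalization, with gene symbols as rows and samples as columns. Per the labels' protocols, RNA was purified with the Qiagen RNeasy kit and libraries of polyadenylated RNA were prepared using the TruSeq RNA v2 kit, which does not mark strand. The submitters' processing notes name BWA. Its version, the genome build and how reads were counted were not given in the sources used. Columns were matched to samples by title. Pairs of libraries of the same age were checked for repeats: their chi-square per degree of freedom was 32.2 or more. All 9 libraries were kept.

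Genes were kept with filterByExpr (minimum count 10, minimum total 15), leaving 14933. The comparison of old with young skin used edgeR's quasi-likelihood test (edgeR 4.0.16, R 4.3.3) with TMM scaling, no covariate and Benjamini-Hochberg adjustment over all genes at 0.05. SEs were worked back from the F statistic and are approximate. CPM are TMM-scaled. The test was tried on simulated data first.

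The members and the gene lists were chosen with earlier results of these data known. The text names all 9 members, up to 4 called genes of each related list with the smallest adjusted p, and the 3 genes most like each called member; others are said to be named after their values were seen. The alternatives were DESeq2 1.42.0, limma-voom (limma 3.58.1), other scalings and filters, a replicate block, a muscle covariate, thinning to the smallest total and leaving out each library; those on the all-even libraries and the hair covariate were chosen after seeing the data. Animals differ between the ages, so equal replicate numbers form no pairs. Figures were drawn with matplotlib 3.10.9.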

Additional observations from a re-analysis of the deposited data

Results flagged for a closer look

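In 52 groups of 4 or 5 libraries, 2 single values stood apart from the rest of their group by Dixon's test, which flags about 1 in 20 groups by chance. TLR2 was at 13.4 CPM in old replicate 3, where the next highest old library had 7.25 CPM. Without that library TLR2 was still called higher in old skin, though not under the replicate block (1.31, edgeR adjusted p = 0.0525). ADAMTS9 was at 11.1 CPM in young replicate 2, where the next lowest young library had 15.7 CPM. Without that library ADAMTS9 was not called.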

How the results depend on the processing

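Of 21 alternatives, none turned the direction of a called gene among the 9. HAS1 ranged from 1.00 to 1.81 (adjusted p 0.0129 to 0.0826) and was also lost with limma-voom (adjusted p = 0.0676), with no filter (0.0525) and after thinning (0.0651). HAS2 ranged from 0.78 to 1.14 and was lost under the replicate block (0.87, edgeR adjusted p = 0.082) and without young replicate 3. Leaving out 1 library gave 1 to 3 members higher, 1 without young replicate 3, and 0 to 1 lower. Related genes higher were 9 to 15 and lower 1 to 3 on leaving out 1 library, with 9 without young replicate 3 and 3 without old replicate 2; lower counts were 2 with DESeq2, the replicate block and the muscle covariate, and 0 without the 2 all-even old libraries. Over all genes, 1280 were lower with DESeq2, 312 with library totals alone, 437 without the 2 all-even old libraries and 1042 with the hair covariate. Leaving out 1 library gave 236 to 786, with 236 without old replicate 4 and 350, 371 and 316 without young replicates 2, 3 and 4. The cause was not tested. Library totals alone moved the median of all genes by 0.16 and the share of higher genes among the calls to 86.2%, against 68.6%. Under the replicate block TLR2 (1.31, edgeR adjusted p = 0.0525), ADAMTS4, ADAMTS9 and PTX3 were also lost, and 1158 genes were higher and 646 lower; deviations of same-numbered libraries correlated at 0.688, -0.002, 0.181 and -0.505, and the numbers name different animals. HAS1 rests on deposited counts of 8 to 55 a library.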

Other observations

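ITIH1 encodes a heavy chain of the inter-alpha-trypsin inhibitors, the proteins whose heavy chains TNFAIP6 transfers onto hyaluronan. It fell below the filter on low counts and was named after its values were seen. Its deposited counts were 18, 7, 24 and 27 in old replicates 1 to 4, with the all-even values in replicates 1 and 3, against 1, 2, 0, 1 and 0 in young replicates 1 to 5. With no filter its log2 fold change was 3.72 ± 0.68 (edgeR quasi-likelihood adjusted p = 0.00778), a fitted value that depends on the prior count. AMBP, the light chain gene of the same inhibitors, had a summed count of 1 in old skin and 0 in young skin.

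ACAN, which encodes the hyaluronan-binding proteoglycan aggrecan, split the libraries of both ages. It had 17.4, 2.21, 0.523 and 0.119 CPM in old skin, against 14.3, 0, 1.83, 5.14 and 0.0571 CPM in young skin, and it was highest in old replicate 1 and young replicate 1, which also had the largest hair shares of their age. It was named after its values were seen, and its log2 fold change was 0.25 ± 1.48 (edgeR quasi-likelihood adjusted p = 0.924). HAS3 followed RGD1561557, MT4 and LOC102554371 most closely within ages (Pearson r 0.993, 0.989 and 0.988 over 9 libraries), and VCAN followed FEZ1, CDK5RAP2 and PTGES3 (0.985, 0.975 and 0.972), given as descriptions with no test. The 20th-ranked gene was close behind, with r = 0.979 for HAS3 and 0.921 for VCAN.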
